A study of Mus musculus with 27 samples.

Results

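The cytosolic sulfotransferases are 9 genes, Sult1a1, Sult1b1, Sult1c2, Sult1d1, Sult1e1, Sult2a1, Sult2a8, Sult3a1 and Sult5a1, which were chosen by symbol from a table of 21823 genes. The table holds 21 genes whose symbol begins with Sult, so 12 others stand beside these 9. The livers came from wild-type female mice, C57BL/6 in the labels and C57BL/6N in the study's methods, 8 to 14 weeks old by the methods (the reporting summary gives 8 weeks to 12 months), which were non-pregnant (NP), in mid-pregnancy at day 8 after mating (dpc8) or in late pregnancy at day 16 (dpc16), and the pregnant mice carried 6 to 12 pups. From each of these 3 stages, zones 1, 2 and 3 of the hepatic lobule, which run from the portal vein to the central vein, were cut out of frozen sections by laser microdissection and measured by RNA sequencing. Each of the 9 combinations of stage and zone has 3 libraries, 27 in all, and the labels name no transgene and no treatment. The labels do not say which zones came from the same animal, so the p-values measure the spread between libraries. Tests averaged over the zones count the 3 zones of a replicate number as separate samples, which makes their p-values too small if those zones share an animal, so the calls that were lost with 1 averaged value per stage and number (3 per stage) are named beside them.

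Sulfotransferases of the cytosol move a sulfonate group from the donor PAPS to a hydroxyl or amine of a small molecule, which usually makes that molecule more water soluble and easier to excrete. The liver is a main site of this reaction, and its substrates there include phenols, catecholamines, thyroid hormones, steroids, bile acids and drugs. The SULT1 family is known mainly for phenolic substrates, the SULT2 family for hydroxysteroids and bile acids, and SULT3 for amines. The substrates of SULT5 are little known.

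Hepatocyte markers were high in every library, with Alb between 22396 and 203747 FPKM. The dpc16 libraries stood apart by stage. In 7 of the 9 the FPKM of all genes summed to 834568 to 988500 and that of 6 hepatocyte markers to 149241 to 223352, against 499866 to 704327 and 36810 to 97918 in NP and dpc8. Every member call between stages held under quantile normalization, which gives all libraries the same distribution of values. That setting cannot remove a difference in the make-up of the libraries between stages, and the part of such a difference in the calls was not tested. The summed FPKM of 9 pericentral markers was 394 to 841 in the zone 1 libraries and 7779 to 19237 in the zone 3 libraries, and the zones kept to their labels at each stage. FPKM divides the fragments of a gene by its length and by the mapped total, and the spacing of the low values put the depth of the libraries at 7.59 to 33.6 M reads (M for the prefix mega). In 6 of the 27 libraries the Y-linked genes summed to 7.92 to 23.2 FPKM, against at most 2.97 in the other 21, although every label reads female. The same 6 had the highest sums of 12 connective tissue and smooth muscle markers, at 1056 to 4785 FPKM against 99.1 to 606. In NP these were replicate 1 of zone 1 and replicate 2 of zone 3, at dpc8 replicate 1 of zone 1 and replicate 2 of zone 2, and at dpc16 replicate 3 of both zone 2 and zone 3. Their part in the results was not tested, and member calls that were lost or gained without them are named beside the results.

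The genes lie in a few clusters on the mouse genome (GRCm38, GENCODE vM21). Sult1b1 (chr5:87513339-87538195), Sult1d1 (chr5:87554645-87569027) and Sult1e1 (chr5:87575969-87591594) follow one another on the minus strand, with gaps of 16450 and 6942 bases. Sult2a1 (chr7:13796246-13837409, minus strand) and Sult2a8 (chr7:14410686-14446769, minus strand) belong to a run of 8 Sult2a genes on chromosome 7. Sult3a1 (chr10:33857721-33879532, plus strand) has its paralog Sult3a2 71017 bases away on the opposite strand. Sult1a1 (chr7:126672865-126676432, minus strand), Sult1c2 (chr17:53829637-53846339, minus strand) and Sult5a1 (chr8:123140192-123158315, minus strand) stand apart from other members, although Sult1c1 is the next gene of the family beside Sult1c2.

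The results turn on 3 members, Sult3a1, Sult5a1 and Sult1d1, and on the paralog Sult3a2, so the 250 bases before their RefSeq starts are shown ( GRCm38.p6, written 5′ to 3′ along the gene). Capitals mark matches on either strand to TATAAA (the TATA box), AGGTCA (a nuclear receptor half-site), CTTTGAT and CTTTGAA (TCF/LEF motifs) and TTCNNNGAA (the STAT5 motif), which occur in 12.4%, 14.02%, 3.21%, 4.46% and 7.02% of 32851 RefSeq promoter windows of the same length.
Sult3a1, chr10:33857472-33857721, plus strand: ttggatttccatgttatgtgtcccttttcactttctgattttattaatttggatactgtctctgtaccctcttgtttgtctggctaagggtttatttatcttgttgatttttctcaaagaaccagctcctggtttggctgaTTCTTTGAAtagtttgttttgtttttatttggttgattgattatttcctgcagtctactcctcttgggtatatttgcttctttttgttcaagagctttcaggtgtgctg
Sult3a2, chr10:33782116-33782365, minus strand: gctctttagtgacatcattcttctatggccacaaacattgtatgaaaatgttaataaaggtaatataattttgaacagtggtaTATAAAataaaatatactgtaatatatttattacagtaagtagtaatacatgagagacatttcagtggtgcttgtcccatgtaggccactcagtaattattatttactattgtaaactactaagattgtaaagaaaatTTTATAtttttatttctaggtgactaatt
Sult5a1, chr8:123158281-123158530, minus strand: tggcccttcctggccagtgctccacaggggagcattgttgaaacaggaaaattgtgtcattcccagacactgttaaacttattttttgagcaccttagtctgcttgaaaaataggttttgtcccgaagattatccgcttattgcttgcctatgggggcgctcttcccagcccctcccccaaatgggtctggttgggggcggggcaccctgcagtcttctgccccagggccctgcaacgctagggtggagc
Sult1d1, chr5:87569007-87569256, minus strand: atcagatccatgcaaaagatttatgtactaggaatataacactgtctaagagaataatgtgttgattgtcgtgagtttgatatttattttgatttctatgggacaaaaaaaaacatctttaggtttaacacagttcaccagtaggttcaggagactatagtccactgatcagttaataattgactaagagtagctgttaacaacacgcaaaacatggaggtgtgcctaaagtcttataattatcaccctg
In the Sult3a1 window, TTCTTTGAA began 109 bases before the start, and the CTTTGAA match lay inside it. The Sult3a2 window lies inside its GENCODE gene (chr10:33766424-33786704, minus strand), whose 5′ end is further upstream. This window held TATAAA at 167 bases before the RefSeq start and the reverse of TATAAA at 29 bases before it. None of these letters was found in the windows of Sult5a1 and Sult1d1. Of the 9 members, 8 had a promoter entry, and for Sult2a1 none is shown.

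The mean FPKM of the 9 genes together was between 863 and 1464 in the 9 groups. Sult1a1, the main phenol sulfotransferase of the liver, made up the largest mean share in all groups except NP zone 3 and dpc16 zone 3, with up to 56.3% in dpc8 zone 1. In NP zone 3 it held 27.2% and Sult2a8 27.8%, and in dpc16 zone 3 it held 19.7% and Sult3a1 56.2%. In zone 1 Sult3a1 held 0.241% of the sum in NP, 0.219% at dpc8 and 1.84% at dpc16. Sult1d1, which acts on catecholamines such as dopamine, held 9.12% to 13.1% of the sum in the NP and dpc8 groups and 1.69% to 3.31% at dpc16.

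**Figure D1:**
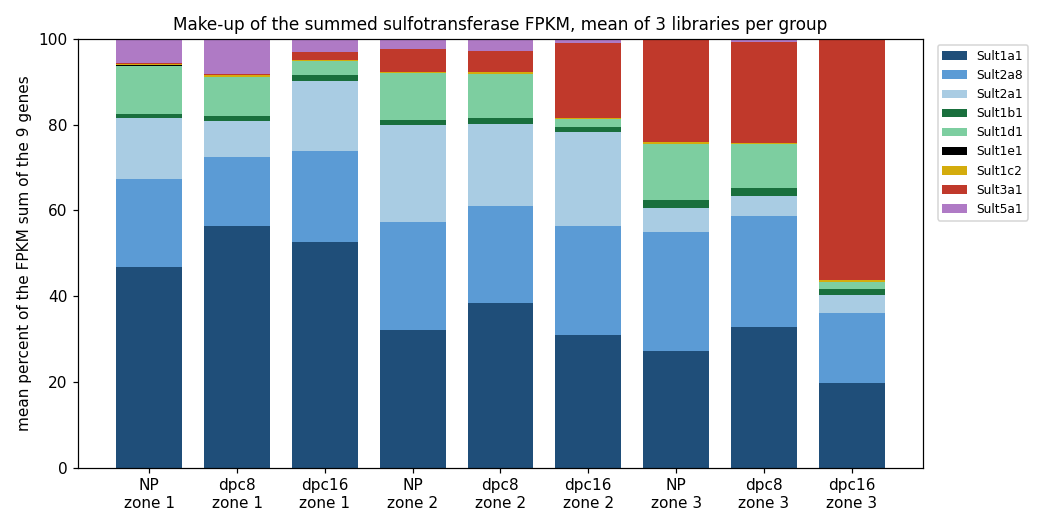
Stacked bars give the mean percent (vertical axis) that each of the 9 genes contributes to their summed FPKM, for the 9 groups of stage and zone with 3 libraries each. Sult3a1 (red) fills 23.7% of the bar in NP zone 3 and 56.2% in dpc16 zone 3, and Sult1d1 (light green) is thin in all dpc16 bars.

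Sult3a1, an amine N-sulfotransferase, had the steepest gradient along the lobule. In NP livers its FPKM was 0.432, 2.46 and 4.07 in zone 1, 29.0, 47.9 and 100.5 in zone 2 and 174, 242 and 516 in zone 3. At dpc8 the libraries held 3.32, 0.742 and 1.29 in zone 1, 112, 19.8 and 60.8 in zone 2 and 424, 192 and 395 in zone 3. Within each of these stages every zone 3 library lay above every zone 2 library, and every zone 2 library above every zone 1 library. At dpc16 the values were 19.5, 19.8 and 6.17 in zone 1, 206, 228 and 59.0 in zone 2 and 1024, 1192 and 371 in zone 3, again with no overlap between zones. Zone 1 was lower than zone 3 by limma on log2(FPKM + 1), by a log2 difference of -6.58 ± 0.69 (SE, adjusted p = 1.65e-06) in NP, -6.95 ± 0.69 (SE, adjusted p = 8.38e-07) at dpc8 and -5.73 ± 0.69 (SE, adjusted p = 9.72e-06) at dpc16. In these 3 comparisons 1.34%, 1.61% and 1.55% of the 12952 genes tested were called at an adjusted p under 0.05, and 2 of the 8 members tested were called in each, Sult3a1 and Sult5a1. The Sult3a1 calls held without the 6 libraries, where the differences were -6.17, -7.32 and -6.25.

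Sult3a1 also separated zone 1 from zone 2. The log2 difference was -4.18 ± 0.69 (SE, adjusted p = 0.00497) in NP and -4.35 ± 0.69 (SE, adjusted p = 0.00387) at dpc8, where 0.154% and 0.124% of all genes tested were called. At dpc16, where 0.139% of genes were called, it was -3.29 ± 0.69 (SE, adjusted p = 0.0622) and missed the threshold. With the replicate number as a block within each stage, in a fit of all stages, its adjusted p at dpc16 was 1.30e-06 by limma. Without the 6 libraries this dpc16 difference was -3.91 and called (adjusted p = 0.00256 by limma). Sult3a1 was the only member called in the comparisons of zone 1 with zone 2. The NP call was lost without zone 1 replicate 1 (adjusted p = 0.0661) or zone 2 replicate 3 (0.0619), and the dpc8 call without zone 1 replicate 2 (0.0505) or zone 2 replicate 1 (0.0672), all by limma. With only the groups compared in the fit, the adjusted p was 0.127 in NP and 0.261 at dpc8.

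Between zones 2 and 3, 0.401%, 0.347% and 0.517% of genes were called in NP, dpc8 and dpc16, and no member was among them. At an unadjusted p under 0.05 there were 3, 2 and 2 of the 8 members, beside 909, 560 and 536 of the 12952 genes. The Sult3a1 differences there were -2.40, -2.60 and -2.44, similar in size at the 3 stages, with adjusted p of 0.197, 0.195 and 0.212 by limma. With the replicate number as a block within each stage, the dpc16 difference of Sult3a1 reached an adjusted p of 2.27e-05 by limma. That of Sult5a1, 1.90 higher in zone 2, reached 0.0395. Without the 6 libraries the NP difference of Sult3a1 was -2.51 and called (adjusted p = 0.0390 by limma).

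Sult3a1 was also compared between stages. Averaged over the 3 zones, the log2 difference was 1.73 ± 0.40 (SE, adjusted p = 0.00547) for dpc16 minus NP and 1.73 ± 0.40 (SE, adjusted p = 0.00589) for dpc16 minus dpc8. In these pooled comparisons 11.8% and 11.1% of all genes tested were called, so that a call is common there. With 1 averaged value per stage and number, both Sult3a1 calls were lost (adjusted p = 0.179 and 0.194 by limma), and 399 and 277 genes were called in place of 1529 and 1432. In zone 1, where the 3 dpc16 libraries lay above all NP and dpc8 libraries, the difference from NP was 2.31 ± 0.69 (SE, adjusted p = 0.111). In zone 3 it was 1.46 ± 0.69 (SE, adjusted p = 0.418) and the groups overlapped, since dpc16 replicate 3, one of the 6 libraries, held 371 FPKM. Without the 6 libraries the pooled differences were 1.90 from NP and 2.01 from dpc8, and the differences in zone 1 from dpc8 (2.86, adjusted p = 0.00543) and in zone 2 from NP (2.04, adjusted p = 0.0435) were called as well by limma.

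In the order of its 9 group means, from 862 FPKM in dpc16 zone 3 to 1.78 FPKM in dpc8 zone 1, Sult3a1 had 2 steps between neighbours whose libraries did not overlap. These were the steps from NP zone 2 to dpc16 zone 1 and from dpc16 zone 1 to NP zone 1. The genes most like it over the 27 libraries, by Pearson's r of log2(FPKM + 1), were Lhpp (0.960), Rdh9 (0.944) and Gulo (0.940), as a description of libraries that share zone, stage and depth. Lhpp is one of the 9 pericentral markers.

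Sult3a2, the neighbour of Sult3a1, is not one of the 9 genes, and its transcript was 90.8% identical to that of Sult3a1 over 893 aligned bases. Only 8 of the 1069 stretches of 86 bases (the read length) in the Sult3a1 transcript also occurred in Sult3a2, which limits how many uniquely mapped reads could be shared. Sult3a2 was listed at 0 in all 3 NP zone 1 libraries and held 1.19, 2.63 and 2.43 FPKM in NP zone 2 and 15.2, 7.70 and 14.5 in NP zone 3. At dpc16 it held 10.99, 8.18 and 2.89 in zone 1, 91.0, 105 and 19.2 in zone 2 and 548, 575 and 177 in zone 3. No dpc16 library overlapped with NP in the same zone. The log2 difference from NP was 4.27 ± 0.57 (SE, adjusted p = 9.94e-05) in zone 2, 4.89 ± 0.57 (SE, adjusted p = 2.18e-05) in zone 3 and 4.02 ± 0.33 (SE, adjusted p = 1.98e-08) over the zones. In zone 1, where NP stood at 0 and the size depends on the pseudocount, it was 2.91 ± 0.57 (SE, adjusted p = 0.00817), a call that was lost without dpc16 zone 1 replicate 1 (adjusted p = 0.0698 by limma). The zone 2 call was lost with only the groups compared in the fit (adjusted p = 0.0843 by limma).

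The dpc8 libraries of Sult3a2 in zone 3 held 47.4, 21.0 and 37.4 FPKM, all above the NP libraries of zone 3 and below those of dpc16. Of the summed FPKM of Sult3a1 and Sult3a2, Sult3a2 made up 2.73% to 8.01% in NP zone 3, 8.65% to 10.04% in dpc8 zone 3 and 32.3% to 34.9% in dpc16 zone 3. The share was similar in the other dpc16 zones, at 29.2% to 36.0% in zone 1 and 24.6% to 31.5% in zone 2. At dpc16 Sult3a2 was lower in zone 1 than in zone 3 by a log2 difference of -5.67 ± 0.57 (SE, adjusted p = 8.11e-07). The shares of the dpc16 libraries did not overlap with those of NP in any zone. In dpc8 zone 1 the share reached 35.3% in replicate 3, where Sult3a2 stood at 0.703 and Sult3a1 at 1.29 FPKM, and was 0 in the other two.

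**Figure D2:**
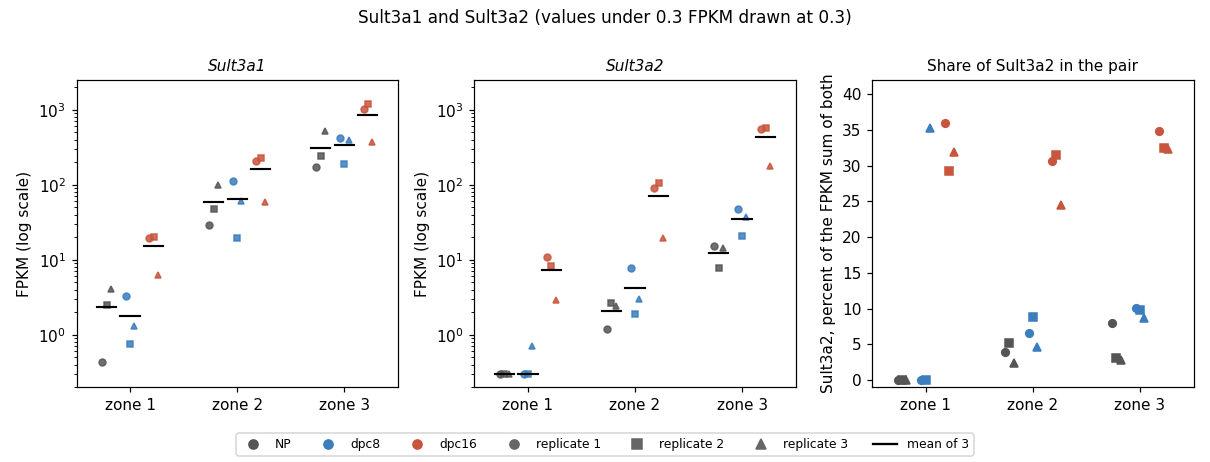
The left and middle panels give FPKM of Sult3a1 and Sult3a2 on a log axis in each library by zone, with colour for stage, symbol for replicate number and a black bar for the mean of 3, and the right panel gives the percent of Sult3a2 in the summed FPKM of both. The dpc16 points of the right panel lie between 24.6% and 36.0% in all zones, and the NP points lie at or below 8.01%.

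Sult5a1 ran the opposite way, from high in zone 1 to low in zone 3. In NP it held 17.0, 62.4 and 63.8 FPKM in zone 1, 5.01, 27.1 and 44.5 in zone 2 and 0.919, 5.05 and 3.20 in zone 3. At dpc8 it held 72.5, 74.1 and 76.0 in zone 1, 58.2, 16.6 and 27.7 in zone 2 and 25.1, 4.57 and 3.71 in zone 3. Zones 1 and 3 did not overlap at either stage, although dpc8 zone 3 replicate 1 stood above the other two libraries of its group. At dpc16 the values were 14.5, 34.9 and 31.2 in zone 1, 4.07, 14.1 and 4.19 in zone 2 and 0.157, 3.24 and 0.567 in zone 3, with no overlap between any pair of zones. Zone 1 was higher than zone 3 by a log2 difference of 3.52 ± 0.75 (SE, adjusted p = 0.0134) in NP, 3.09 ± 0.75 (SE, adjusted p = 0.0356) at dpc8 and 3.73 ± 0.75 (SE, adjusted p = 0.00645) at dpc16.

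These single-stage calls of Sult5a1 rest on few libraries. By limma, the NP call was lost without zone 1 replicate 2 (adjusted p = 0.0931), zone 1 replicate 3 (0.0833) or zone 3 replicate 1 (0.113), and the dpc16 call without zone 3 replicate 1 (0.0585). The dpc8 call was lost without any of the 3 zone 1 libraries (0.110, 0.101 and 0.0912), without zone 3 replicate 2 (0.180) or replicate 3 (0.226), and without the 6 libraries (0.0593). It was also lost with a pseudocount of 0.1 (0.0839), with no filter on low values (0.0560) and with only the groups compared in the fit (0.0703), which ended the NP call too (0.0788). Averaged over stages, the zone difference of Sult5a1 was 3.45 ± 0.44 (SE, adjusted p = 9.02e-06), and it stayed called in all 18 fits that left out 1 library of those compared.

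Between stages, Sult5a1 was lower at dpc16 than at dpc8 by -1.92 ± 0.44 (SE, adjusted p = 0.00547) averaged over zones. With 1 averaged value per stage and number this call was lost (adjusted p = 0.160 by limma). The dpc16 libraries lay below all dpc8 libraries of the same zone in each of the 3 zones. The difference of dpc16 from NP was -0.997 ± 0.435 (SE, adjusted p = 0.158) and did not pass the test. Group means ran from 74.2 FPKM in dpc8 zone 1 to 1.32 FPKM in dpc16 zone 3, and only the first step, to NP zone 1, separated neighbours without overlap. The genes most like Sult5a1 were Ctsc (r = 0.895), which is one of the 9 periportal markers, Ly6e (0.894) and Srd5a1 (0.876).

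Averaged over stages, 5.59% of genes differed between zones 1 and 3, and 3 of the 8 members tested did: Sult3a1, Sult5a1 and Sult1b1. Sult1b1 codes for an enzyme known for phenols and thyroid hormones. Its FPKM ranged from 3.83 to 48.7, with zone 1 at a mean of 11.02 and zone 3 at a mean of 24.1 over 9 libraries each. The log2 difference was -1.08 ± 0.26 (SE, adjusted p = 0.0131). At single stages Sult1b1 was not called, with differences of -1.41 in NP, -1.36 at dpc8 and -0.46 at dpc16. At dpc8 the zone 3 libraries (23.7, 25.6 and 34.8 FPKM) all lay above those of zone 1 (4.75, 11.5 and 18.1), whereas the zones overlapped in NP and at dpc16. The zone difference of Sult1b1 was -0.94 without the 6 libraries and stayed called.

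Sult2a8, a hydroxysteroid and bile acid sulfotransferase, ranged from 71.2 to 560.3 FPKM. Its zone 1 libraries held 71.2, 199 and 272 in NP, 121, 124 and 203 at dpc8 and 260.1, 130.0 and 206 at dpc16. Its zone 3 libraries held 256, 262 and 560.3 in NP, 319, 336 and 436 at dpc8 and 291, 230.1 and 166 at dpc16. Only at dpc8 did these zones not overlap. Averaged over stages the difference was -0.87 ± 0.27 (SE, adjusted p = 0.0659) and missed the threshold, but without the 6 libraries it was -0.77 with an adjusted p of 0.0304 by limma.

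**Figure D3:**
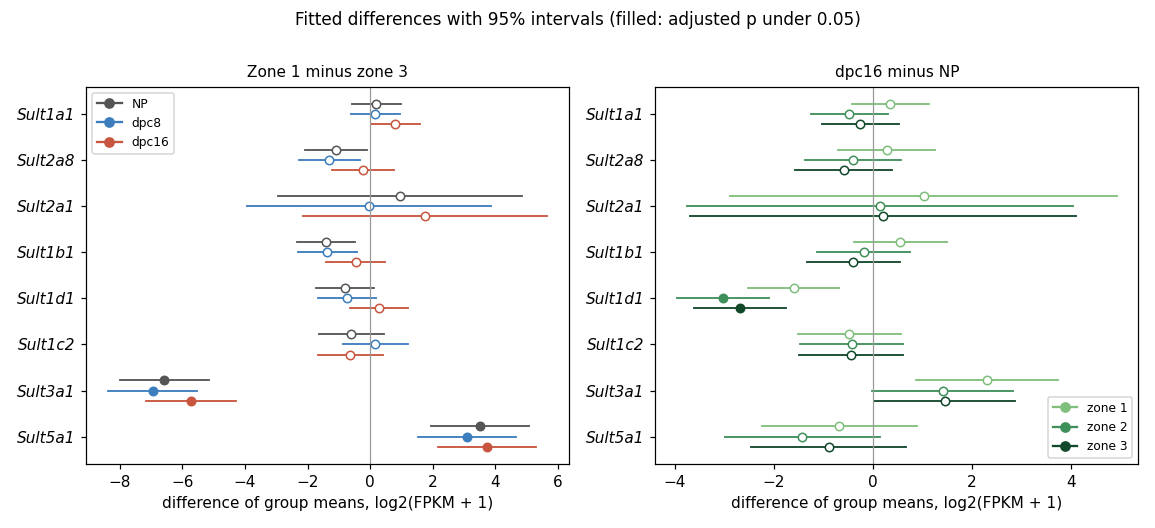
Points give the fitted differences of group means on the log2(FPKM + 1) scale (horizontal axis) with 95% intervals for the 8 members tested, zone 1 minus zone 3 at each stage on the left and dpc16 minus NP in each zone on the right. Filled points have an adjusted p under 0.05 and are Sult3a1 and Sult5a1 at all stages on the left and Sult1d1 in zones 2 and 3 on the right.

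Against NP, Sult1d1 had the largest drop of the 8 members tested at dpc16, by the fitted log2 difference in each zone. In NP livers it held 60.3, 75.6 and 160.0 FPKM in zone 1, 131, 113 and 118 in zone 2 and 169, 89.0 and 256 in zone 3. At dpc8 the values were 54.7, 96.0 and 109.9 in zone 1, 153, 84.4 and 137 in zone 2 and 163, 139 and 121 in zone 3, within or near the NP range. At dpc16 they were 43.3, 13.4 and 41.6 in zone 1, 22.6, 12.7 and 9.45 in zone 2 and 24.6, 30.5 and 17.6 in zone 3. All 9 dpc16 libraries, at 9.45 to 43.3 FPKM, lay below all 18 NP and dpc8 libraries, at 54.7 to 256 FPKM.

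Against NP, the log2 difference of Sult1d1 at dpc16 was -3.02 ± 0.45 (SE, adjusted p = 3.64e-04) in zone 2 and -2.68 ± 0.45 (SE, adjusted p = 0.00136) in zone 3. Sult1d1 was the only member called in these zones, where 2.66% and 1.32% of genes were called. With only the groups compared in the fit, the zone 3 call was lost (adjusted p = 0.0695 by limma). In zone 1, where 1.37% of genes and no member were called and 2 members beside 1424 of the 12952 genes had an unadjusted p under 0.05, the difference was -1.60 ± 0.45 (SE, adjusted p = 0.0838). Without the 6 libraries it was -1.88 there, with an adjusted p of 0.0150 by limma. Averaged over zones the difference was -2.43 ± 0.26 (SE, adjusted p = 8.67e-07), and of the 8 members tested only Sult1d1 and Sult3a1 were called, beside 11.8% of all genes. With 1 averaged value per stage and number Sult1d1 stayed called against NP (adjusted p = 0.00187) and against dpc8 (0.00271 by limma), and the Sult3a1 call against NP was lost (0.179).

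Against dpc8, the differences of Sult1d1 were -3.03 ± 0.45 (SE, adjusted p = 4.22e-04) in zone 2, -2.52 ± 0.45 (SE, adjusted p = 0.00309) in zone 3 and -2.34 ± 0.26 (SE, adjusted p = 1.93e-06) over the zones. This comparison shares its dpc16 libraries with the one before. It called 2.01%, 1.51% and 1.37% of genes in zones 1, 2 and 3. In zone 1 no member was called, and Sult1d1 (-1.49 ± 0.45 (SE, adjusted p = 0.0969)) and Sult3a1 (2.49 ± 0.69 (SE, adjusted p = 0.0640)) had an unadjusted p under 0.05, beside 1741 of the 12952 genes. Without the 6 libraries the zone 1 difference of Sult1d1 was -1.79 and called (adjusted p = 0.0172 by limma). The zone 2 call was lost with only the groups compared in the fit (adjusted p = 0.112). In the order of group means, from 171 FPKM in NP zone 3 to 14.9 FPKM in dpc16 zone 2, the step from dpc8 zone 1 to dpc16 zone 1 was the only one of Sult1d1 without overlap. The genes most like Sult1d1 were Pipox (r = 0.950), Mettl7a1 (0.939) and Gstt1 (0.935).

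No member was called between dpc8 and NP in any zone or over the zones. The share of all genes called was 0.0309% in zone 1, 0.00772% in zone 2, 0.0154% in zone 3 and 0.108% over the zones. At an unadjusted p under 0.05 by limma there was no member in single zones, beside 406, 656 and 355 of the 12952 genes in zones 1, 2 and 3. Over the zones there was 1 of 8 members beside 792 genes, Sult5a1, with a difference of 0.92 ± 0.44 (SE, adjusted p = 0.797). Whether the change from NP differed between zones 1 and 3 was tested as well. For dpc16 0.054% of genes and no member were called, and for dpc8 0% of genes (306 at an unadjusted p under 0.05) and no member. The interval of the zone difference in the dpc16 change ran from -1.16 to 2.87 on the log2 scale for Sult3a1 and from -0.23 to 2.39 for Sult1d1.

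Sult2a1, which sulfonates dehydroepiandrosterone and bile acids, was the least stable member among libraries of a group. In NP it held 113, 2.40 and 276 FPKM in zone 1, 482, 15.8 and 393 in zone 2 and 101, 0 and 145 in zone 3, with replicate 2 lowest in each zone. At dpc8 the values were 3.17, 179 and 78.5 in zone 1, 39.9, 289 and 339 in zone 2 and 8.22, 116 and 56.9 in zone 3, with replicate 1 lowest in each zone. At dpc16 they were 61.4, 28.7 and 489 in zone 1, 185, 128 and 184 in zone 2 and 14.3, 14.9 and 94.2 in zone 3. Within a stage, libraries of the same number tended to stand together, but the labels do not tie a number to an animal.

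The within-group SD of Sult2a1 was 2.50 on the log2 scale, against 0.451 for the median gene, and higher than in 99.8% of the genes tested. The highest library exceeded the lowest by over 5 times in 7 of the 8 groups without a 0, and by up to 115 times. No comparison called Sult2a1, and its intervals were wide, from -2.95 to 4.85 for zone 1 minus zone 3 in NP. Within sets of the same stage and number, zone 2 was above zone 3 in 9 of 9 sets and above zone 1 in 8 of 9, the exception being dpc16 replicate 3. The labels do not tie these sets to animals, and the share of all genes with such counts was not computed. The fitted differences of zone 2 minus zone 3 were 2.58, 2.00 and 2.53 in NP, dpc8 and dpc16, with adjusted p of 0.945 or more by limma.

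Reads of Sult2a1 are hard to assign. Of its 86-base stretches 15.0% also occur in Sult2a2 or Sult2a5, and over 525 aligned bases its transcript is 98.5% identical to that of Sult2a2, so the levels of these genes are uncertain. Sult2a2 was also the gene most like it (r = 0.823). Sult2a2 ranged from 3.78 to 395 FPKM and likewise stood low in the libraries with number 2 in NP, at 14.8, 64.2 and 13.3 FPKM in zones 1, 2 and 3. Sult2a8 shares no such stretch with another gene, and its values did not follow those of Sult2a1 (r = 0.0724 over 27 libraries).

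**Figure D4:**
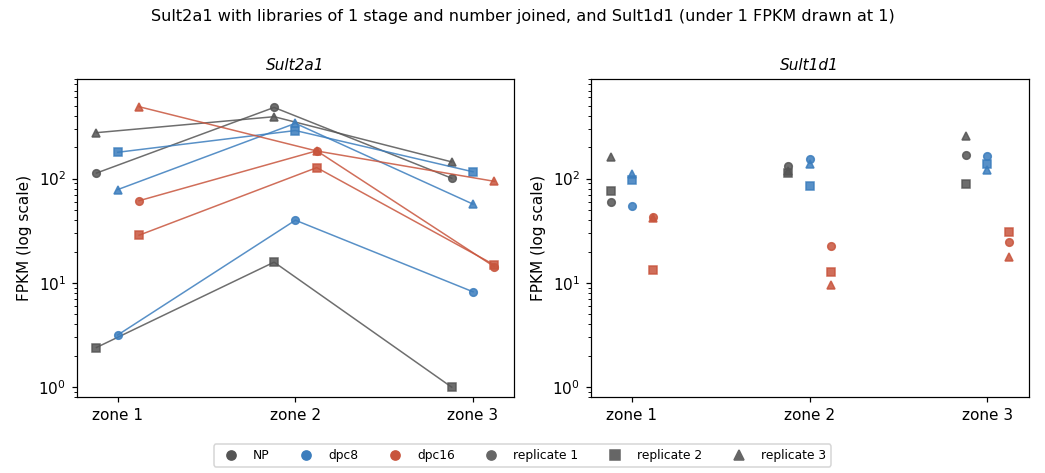
FPKM on a log axis by zone for Sult2a1 on the left, with lines joining libraries of the same stage and replicate number, and for Sult1d1 on the right. The NP replicate 2 and dpc8 replicate 1 lines of Sult2a1 lie below the others, and for Sult1d1 all 9 dpc16 points lie at or below 43.3 FPKM.

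Sult1a1 was the most evenly expressed member. It ranged from 118 to 585 FPKM with a median of 411, and its 9 group means lay between 284 FPKM in dpc16 zone 3 and 519 FPKM in dpc8 zone 1, a ratio of 1.83. All neighbouring groups in this order overlapped. At dpc16 the 3 zone 1 libraries (508, 441 and 486 FPKM) lay above those of zone 2 (411, 338 and 118) and zone 3 (327, 346 and 178), with a difference of zone 1 minus zone 3 of 0.81 ± 0.37 (SE, adjusted p = 0.584). The low values in zones 2 and 3, in replicate 3 of each, are from 2 of the 6 libraries. Over the zones, dpc16 differed from dpc8 by -0.57 ± 0.22 (SE, adjusted p = 0.0984), and without the 6 libraries by -0.40 with an adjusted p of 0.0123 by limma. Of its 86-base stretches 2.65% also occur in the gene model Gm6939.

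Sult1c2, a further SULT1 enzyme, was low, at 0.323 to 9.39 FPKM with a median of 3.80. Its group means ran from 2.38 FPKM in dpc16 zone 2 to 6.31 FPKM in NP zone 3, all neighbours overlapped, and no comparison called it. Sult1e1, the estrogen sulfotransferase, was listed at 0 in 14 of 27 libraries and reached 1 FPKM in 2, so it was not tested. Its highest value, 1.95 FPKM in NP zone 1 replicate 3, corresponds to about 43 reads by the spacing of low values. In NP its values were 0.0703, 0.108 and 1.95 in zone 1, 0.720, 0 and 1.29 in zone 2 and 0, 0 and 0.859 in zone 3. At dpc8 they were 0, 0 and 0.920 in zone 1, 0 in all of zone 2 and 0.115, 0 and 0.144 in zone 3. At dpc16 they were 0 in all of zone 1, 0, 0.350 and 0.0576 in zone 2 and 0.214, 0 and 0.126 in zone 3. No zone or stage pattern of Sult1e1 was readable. Values were low and libraries of a group differed widely, with about 1, 2 and 43 reads in NP zone 1.

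**Figure D5:**
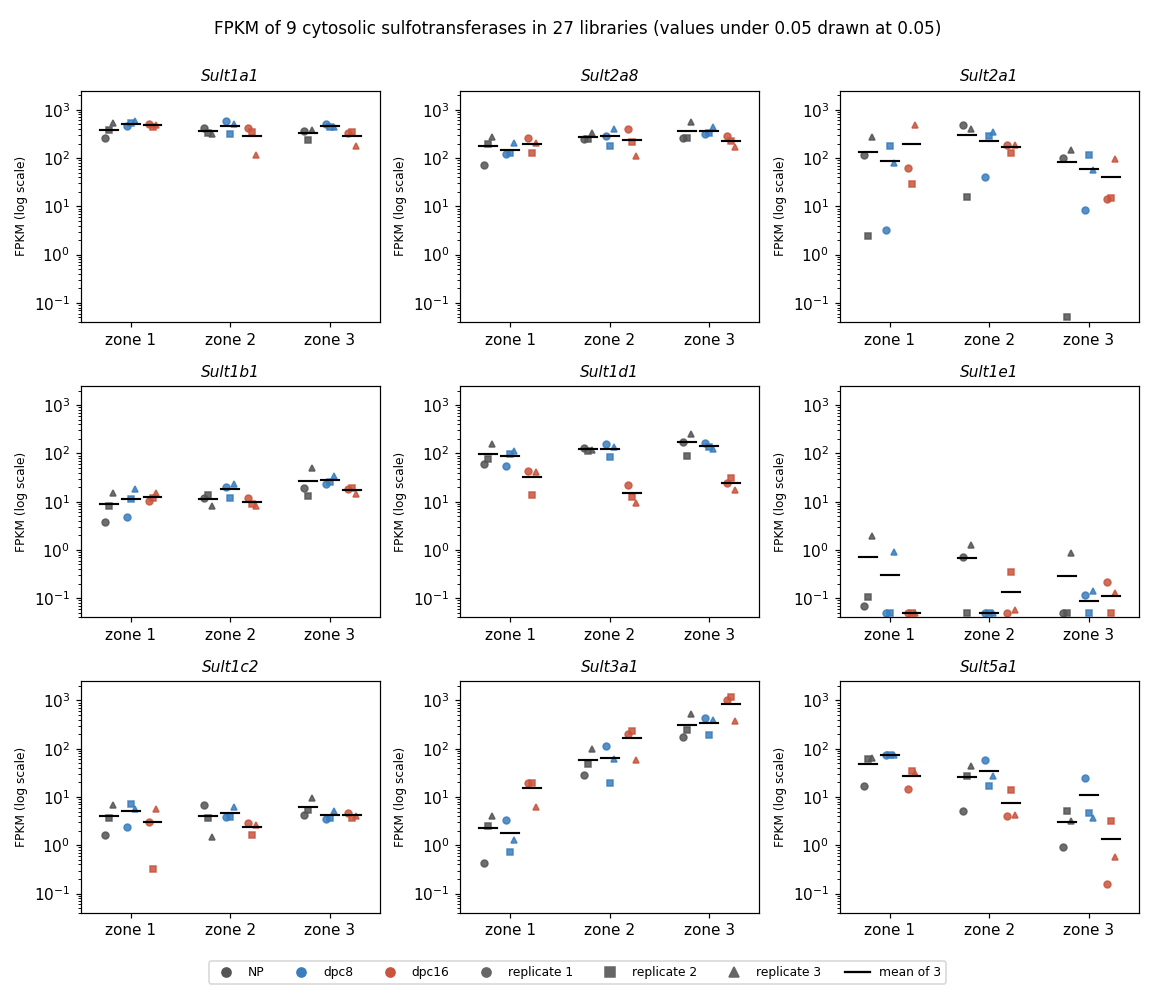
FPKM of the 9 members on a common log axis in each library by zone, with colour for stage, symbol for replicate number and a black bar for the mean of 3 libraries, and values under 0.05 drawn at 0.05. Sult3a1 rises and Sult5a1 falls from zone 1 to zone 3, Sult1d1 is lower at dpc16, and Sult2a1 spreads widely within groups.

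Of the 28 pairs of members tested, 20 had a Pearson's r within 0.5 of 0, 7 were above 0.5 and 1 was below -0.5. Over the 27 libraries the correlation of log2 levels ran from -0.731 for Sult3a1 and Sult5a1, which lie in opposite zones, to 0.764 for Sult1b1 and Sult2a8, as a description of libraries that share zones, stages and depth. The nearest genes by the same measure were Suclg2 (0.891), Msra (0.886) and Dmgdh (0.878) for Sult1a1, Tm7sf2 (0.873), Ugt2b36 (0.855) and Ces2c (0.849) for Sult1b1, Akr1d1 (0.815), C330021F23Rik (0.756) and Hint3 (0.751) for Sult1c2, and Cyp2c68 (0.892), Ugt2b36 (0.885) and Cyb5a (0.865) for Sult2a8. For Sult2a1, Rpp40 (0.707) and Usp30 (0.648) followed Sult2a2.

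Of the 12 other sulfotransferase genes, 8 passed the filter and Sult3a2 and Sult2a7 were called from NP to dpc16 over the zones, beside 11.8% of all genes. Sult2a7 was lower at dpc16 than in NP over the zones by -1.63 ± 0.47 (SE, adjusted p = 0.0248), at means of 0.564 and 6.53 FPKM over 9 libraries each, a call that was lost without NP zone 2 replicate 3 (adjusted p = 0.0509 by limma) or NP zone 3 replicate 3 (0.0547), and with 1 averaged value per stage and number (0.191). Against dpc8, where 11.1% of genes were called and its mean was 11.02 FPKM, Sult2a7 differed by -2.31 ± 0.47 (SE, adjusted p = 0.00221), a call that was also lost with 1 averaged value per stage and number (adjusted p = 0.0835 by limma). Sult2a3, Sult2a4, Sult2a5, Sult2a6 and Sult4a1 reached at most 10.02, 6.82, 36.8, 24.6 and 20.6 FPKM and were not called. Sult2b1 was not tested, and Sult1c1, Sult6b1 and Sult6b2 were listed at 0 in every library.

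Around the enzymes, 20 genes of sulfate and PAPS supply, of sulfide and cysteine oxidation and of other sulfotransfer or sulfatase steps were tested. Between zones 1 and 3 over the stages 2 were higher and 2 lower in zone 1, beside a background of 5.59%, with a list median of 0.02 against 0.04 for all genes. Sqor, which oxidises sulfide, was higher in zone 1 by 0.92 ± 0.20 (SE, adjusted p = 0.00439), and Tpst1, a protein tyrosine sulfotransferase, by 0.90 ± 0.18 (SE, adjusted p = 0.00195). Tst, the thiosulfate sulfurtransferase, was lower by -1.03 ± 0.22 (SE, adjusted p = 0.00561), and Cdo1, which starts the breakdown of cysteine to sulfate and taurine, by -1.01 ± 0.22 (SE, adjusted p = 0.00577). At single stages, where 1.34% to 1.61% of all genes were called, only Sqor was called, at dpc16, and that call was lost without zone 1 replicate 3 (adjusted p = 0.134 by limma) or zone 3 replicate 1 (0.0829) or 2 (0.0754), and with only the groups compared in the fit (0.0989).

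From NP to dpc16 over the zones, 2 of these 20 genes rose and 5 fell, against 11.8% of all genes called, with a list median of -0.20 against -0.01. Papss2, which makes PAPS from sulfate, fell by 0.77 ± 0.22 (SE, adjusted p = 0.0223), from a mean of 147 to 83.1 FPKM. That call was lost without NP zone 1 replicate 3 (adjusted p = 0.0536 by limma), NP zone 3 replicate 3 (0.0539) or dpc16 zone 1 replicate 2 (0.0568). Slc26a1, a sulfate transporter, changed by -0.87 ± 0.21 (SE, adjusted p = 0.00678). Ethe1, the mitochondrial persulfide dioxygenase, changed by -1.74 ± 0.39 (SE, adjusted p = 0.00450). Tst (-1.11 ± 0.22 (SE, adjusted p = 0.00196)) and Sqor (-0.72 ± 0.20 (SE, adjusted p = 0.0176)) fell too. Impad1, which breaks down the by-product PAP in the Golgi (0.35, adjusted p = 0.0357 by limma), and the sulfatase-modifying factor Sumf2 (0.80, 0.0383) rose, and each of these calls was kept in 8 of the 18 fits that left out 1 of the libraries compared. The Sumf2 call was also lost without the 6 libraries with Y-linked FPKM (0.64, adjusted p = 0.126 by limma), with no filter on low values (0.0523) and with array weights (0.0707), and the Impad1 call with only the groups compared in the fit (0.0655). With 1 averaged value per stage and number Slc26a1 (adjusted p = 0.0306) and Tst (0.0455) stayed called, and Sqor (0.0907), Sumf2 (0.120), Papss2 (0.146), Ethe1 (0.170) and Impad1 (0.268) did not.

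Of 16 receptors and transcription factors that act in hepatocytes, 2 rose and 3 fell from NP to dpc16 over the zones, beside 11.8% of all genes called, with a list median of -0.20 against -0.01. In single zones 2 rose in each and 1 fell in zone 2, beside 1.37%, 2.66% and 1.32% of genes in zones 1, 2 and 3. Prlr and Ghr, the receptors of prolactin and growth hormone, rose at dpc16 in all zones, although with only the groups compared in the fit both zone 2 calls were lost (adjusted p = 0.241 and 0.112 by limma). Prlr stood at means of 211, 317 and 349 FPKM in zones 1, 2 and 3 of NP and 2147, 1740 and 1749 FPKM at dpc16. Ghr stood at 171, 213 and 280.3 FPKM in NP and 2077, 1602 and 1533 FPKM at dpc16. Over the zones the log2 differences were 2.66 ± 0.22 (SE, adjusted p = 1.92e-08) and 2.93 ± 0.19 (SE, adjusted p = 7.91e-10). The bile acid receptor gene Nr1h4 (-0.79 ± 0.18 (SE, adjusted p = 0.00551)), the glucocorticoid receptor gene Nr3c1 (-0.54 ± 0.14 (SE, adjusted p = 0.0131)) and Stat5b, a transducer of both hormone receptors (-0.67 ± 0.18 (SE, adjusted p = 0.0170)), fell. With 1 averaged value per stage and number Prlr and Ghr stayed called (adjusted p = 0.00173 and 7.64e-04 by limma), and Nr3c1 (0.0517), Nr1h4 (0.113) and Stat5b (0.198) did not. Averaged over stages, Nr1i3, the CAR receptor gene, was lower in zone 1 than in zone 3 by -0.97 ± 0.24 (SE, adjusted p = 0.0145). In that comparison 2 of the 16 genes were called, beside 5.59% of all genes, and none was called between these zones at a single stage. Stat5a, a further transducer, was lower at dpc16 than in NP in zone 2 by -1.05 ± 0.28 (SE, adjusted p = 0.0464), a call that was lost without 5 of the 6 libraries of these groups, left out 1 at a time (adjusted p from 0.0644 to 0.187 by limma). It was also lost in fits without libraries of other groups, without the 6 libraries with Y-linked FPKM (0.0563), under quantile normalization (0.0520) and with only the groups compared in the fit (0.415).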

How the data were processed

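Expression was measured by RNA sequencing of laser-microdissected lobular zones in 27 libraries, grouped by sample title into 9 groups of 3. Per the labels and the study's methods, the authors depleted ribosomal RNA, trimmed reads with cutadapt, used HISAT2 2.1.0 for alignment to mm10, retained reads with a unique position, and ran Cuffdiff (Cufflinks 2.2.1) to obtain FPKM for the protein-coding genes of GENCODE. These deposited FPKM values were used as given, and the table held no read counts. Single-end reads of 86 bases limit how well close paralogs are told apart, and sharing was computed from GENCODE vM21 transcripts.

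Genes with at least 1 FPKM in at least 3 libraries were kept (12952 of 21823; 4626 were at 0 throughout), and log2(FPKM + 1) was tested with limma 3.58.1 in R 4.3.3. A mean was fitted to each group over all libraries, with trended and robust moderation, two-sided tests and Benjamini-Hochberg adjustment over all genes tested in each comparison (threshold 0.05). The adjusted p-values, intervals and standard errors given are from this fit, on a scale that understates changes of low genes. The code was tested on simulated data. Depth per library was estimated from the spacing of low FPKM of 2628 single-transcript genes, of which 89.5% to 96.3% per library lay on whole steps, so it is approximate and no counting interval was computed.

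Libraries of the same number deviated together at dpc16, where all 9 correlations between zones of their deviations from group means were over 0.1 (0.263 to 0.863), but in only 4 of 9 cases in NP and 5 of 9 at dpc8. At dpc16 the pairs of zones 2 and 3 stood highest, at 0.632, 0.668 and 0.863, against 0.263 to 0.397 for pairs with zone 1. Replicate 3 of both zones is among the 6 libraries with Y-linked FPKM, whose part in these correlations was not tested. The 3 numbers are not independent here, since deviations are taken from the mean of the same 3 libraries. A block of numbers within each stage was fitted for NP, dpc8 and dpc16 together, and its p-values are therefore printed only for dpc16 zones. Alternatives were a pseudocount of 0.1, no filter, quantile normalization, array weights, only the groups compared, a replicate block and leaving out each library. Leaving out the 6 libraries with Y-linked FPKM, a block within each stage and averaging the zones within each stage and number were chosen after seeing the data. The members and lists were chosen with earlier results of these data known. Of 21 listed sulfation genes 20 were analysed here. Named beside the members were the other Sult genes, the called genes of both lists, except 1 that is not reported here, and the 3 genes most like each member. Promoters came from RefSeq.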

Additional observations from a re-analysis of the deposited data

How the results depend on the processing

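All 20 member differences called kept their sign in every alternative run, and 10 of them lost their call in at least 1. Member calls are counted here over the comparisons of a kind. With array weights there were 6 instead of 2 between zone 2 and the outer zones, 5 instead of 2 for dpc16 against NP in single zones, 5 instead of 2 for dpc16 against dpc8 in single zones, and 6 instead of 3 for dpc16 against dpc8 over the zones. With only the groups compared in the fit, which leaves few libraries to estimate the spread, these were 0, 1 and 1 for the first 3. Without the 6 libraries with Y-linked FPKM they were 4, 4 and 4. With the zones averaged within each stage and number, 1 call was left for dpc16 against NP over the zones and 1 for dpc16 against dpc8, both of Sult1d1, and 399 and 277 genes were called in all. With the replicate block within each stage, 8 calls were made between zone 2 and the outer zones, 6 of Sult3a1 and 2 of Sult5a1. Over all genes this block raised calls for zone 1 against zone 2 from 20, 16 and 18 to 58, 26 and 33 in NP, dpc8 and dpc16. Those for zone 2 against zone 3 rose from 52, 45 and 67 to 111, 73 and 111. Between zones 1 and 3 it gave 7 member calls instead of 6, beside 282, 459 and 343 genes instead of 173, 208 and 201. NP and dpc8 libraries share only a number, and their part of the member calls with this block is given here only. With a replicate block of 3 levels across stages, the calls stayed at 6 for zone 1 against zone 3, 2 for zone 2, 2 and 2 for dpc16 against NP and dpc8 in single zones, and no count changed. Leaving out 1 library gave 5 to 6 calls for zone 1 against zone 3, 1 to 3 for zone 2 against the outer zones, 3 to 4 for zone 1 against zone 3 over the stages, 2 throughout for dpc16 against NP and 2 to 3 over the zones, 2 to 3 for dpc16 against dpc8 and 3 to 4 over the zones, and 0 for dpc8 against NP and for both tests of a change that differs between zones. The low count of 1 for zone 2 came without NP zone 2 replicate 3 or dpc8 zone 1 replicate 2. A pseudocount of 0.1, no filter and quantile normalization left every such count within 1.5 times, and the cause of the differences was not tested. Over all genes, calls for dpc16 against NP were 1529 over the zones and 345 in zone 2, against 2901 and 1101 with array weights, 2195 and 587 without the 6 libraries, and 1192 and 17 with only the groups compared. For zone 1 against zone 3 at dpc8 they were 208, against 855, 341 and 155 in the same order, and 459 with the block within each stage. For dpc16 against dpc8 over the zones and in zone 2 they were 1432 and 195. In the same order of settings these became 3527 and 993, 2417 and 524, and 1359 and 0. With array weights, zone 1 against zone 2 gave 42, 42 and 68 in NP, dpc8 and dpc16, against 20, 16 and 18. Zone 2 against zone 3 gave 102, 115 and 278, against 52, 45 and 67. Of 172 member differences not called, 20 were called under some alternative and 76 changed sign under some. FPKM without counts and 3 libraries a group limit what small differences can be seen.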
